A study of Mus musculus with 56 samples.

Results

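Mbp, Pmp22, Scn7a, Cdh19, Ngfr and S100b are genes used to recognise Schwann cells, the glia of peripheral nerves. They were taken by symbol from the deposited expression table of sorted mouse skin, where all 6 were present among 24062 genes. Each is described here over 7 cell populations and 4 skin zones, and in particular in the sorted dermal fibroblasts. The libraries came from the dorsal skin of mice at postnatal day 22 that carried the K14-H2BGFP, Crabp1-GFP and Lef1-RFP reporters together, with CD1 entered as the genotype. All groups share these reporters, and every cell was isolated by fluorescence-activated sorting. The sort gates are not given here. The populations were dermal fibroblasts (DF), dermal papilla (DP), bulge stem cells (BuSC), hair germ stem cells (HGSC), upper hair follicle (Foll), epidermis (Epi) and a negative fraction of mixed cells (Neg). Each was collected from zones Z1 to Z4 of the back in 2 biological replicates, giving 8 libraries a population and 56 in all. Whether libraries with the same replicate number came from the same animals was not given, and the batch entry of the labels holds the zone, so batch and zone cannot be told apart.

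Schwann cells wrap the axons of cutaneous nerves, either forming myelin around large axons or ensheathing bundles of small axons without myelin. Sox10 maintains their identity, and Egr2 (Krox20) drives the myelin program. Mbp (myelin basic protein) compacts the inner faces of the myelin membrane, and Pmp22 (peripheral myelin protein 22) is a membrane protein of compact peripheral myelin that is also made by fibroblasts, where it was found as a growth-arrest gene. Scn7a encodes Nax, an atypical sodium channel that senses sodium, and Cdh19 is a cadherin of the Schwann cell lineage. Ngfr is the p75 neurotrophin receptor, raised in immature, nonmyelinating and injured Schwann cells and used also by other cells of the skin. S100b is a calcium-binding protein of glia that melanocytes and fat cells make as well. The Mbp locus also gives rise to golli transcripts outside myelin, and the table gives 1 value per gene, so the forms cannot be separated.

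The proximal promoters of Scn7a, Pmp22 and S100b are shown because these genes had different population patterns, described next. RefSeq windows of 300 bases around the annotated start (build GRCm38.p6) matched Scn7a, S100b and Ngfr with 1 window each and Pmp22 with 4. Cdh19 had no window. The windows were searched on both strands for the SoxE core (ACAAAG or ACAATG), the EGR site GCGNGGGCG and the TEAD site GGAATG, which share no letters where they matched. Capitals mark the matches. They are, 5′ to 3′ on the gene's strand:
Scn7a, chr2:66784861-66785160, minus strand: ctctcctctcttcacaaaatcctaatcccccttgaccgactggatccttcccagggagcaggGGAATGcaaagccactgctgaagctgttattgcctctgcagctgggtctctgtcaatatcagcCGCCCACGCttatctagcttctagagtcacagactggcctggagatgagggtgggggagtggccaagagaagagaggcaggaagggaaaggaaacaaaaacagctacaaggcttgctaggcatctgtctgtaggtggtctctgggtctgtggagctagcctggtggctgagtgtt
Pmp22, chr11:63128732-63129031, plus strand: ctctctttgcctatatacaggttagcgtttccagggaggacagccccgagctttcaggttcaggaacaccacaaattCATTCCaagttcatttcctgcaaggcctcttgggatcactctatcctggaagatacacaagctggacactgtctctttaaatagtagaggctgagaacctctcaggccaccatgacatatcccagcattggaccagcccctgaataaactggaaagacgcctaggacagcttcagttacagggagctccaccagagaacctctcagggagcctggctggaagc
S100b, chr10:76253586-76253885, plus strand: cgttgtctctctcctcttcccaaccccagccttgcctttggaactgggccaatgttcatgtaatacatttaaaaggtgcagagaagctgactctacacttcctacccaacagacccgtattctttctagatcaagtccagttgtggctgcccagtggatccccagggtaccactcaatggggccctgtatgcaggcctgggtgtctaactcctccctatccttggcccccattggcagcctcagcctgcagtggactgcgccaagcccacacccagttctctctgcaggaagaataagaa
The Scn7a window held a GGAATG at base 63 and, on the other strand, an EGR match at base 126. The Pmp22 window shown held a GGAATG on the other strand at base 78, and the other 3 Pmp22 windows, S100b and Ngfr held none of these letters. Of all 32817 RefSeq promoter windows, 28.6% held a SoxE core, 14.7% the TEAD site and 5.6% the EGR site. A match is a run of letters and was not tested as a binding site.

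Values are RPKM, reads scaled to gene length and to the reads of the library, as deposited by the authors. The totals to which the libraries had been scaled, recovered from the steps of the low values, ran from 3.24 to 87.8 M reads (median 14.7 M). The summed RPKM of 9 fibroblast markers was 40237 to 52953 in DF, against 7628 to 15195 in Neg. The highest DF means were those of the collagen genes Col1a1 (21436 RPKM), Col1a2 (12957) and Col3a1 (8360). Pdgfra and Dpt had lower means in DF than in Neg, and the others on the list higher ones. The 9 smooth muscle and pericyte markers summed to 731 to 1222 RPKM in DF and 487 to 970 RPKM in Neg. All 8 dermal papilla markers were called lower in DF than in DP, as were 24.2% of all tested genes. Neg held the markers of several cell types, with 8 melanocyte markers summing to 355 to 661 RPKM and 11 immune markers to 1726 to 2601 RPKM. In these bulk libraries, the number of Schwann cells, the RNA per Schwann cell and expression by other cells cannot be told apart. Differences were tested with limma on log2(RPKM + 1), a scale that understates changes of low values. Calls needed a log2 difference of at least 1 and a p under 0.05 after Benjamini-Hochberg adjustment over the 16731 tested genes, which included all 6.

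All 6 genes differed over the populations (moderated F, adjusted p from 3.78e-21 for Scn7a to 1.31e-06 for Ngfr), as did 81.8% of all tested genes. Neg had the highest mean of 5 genes, and DP had that of S100b. DF held the second highest mean of Pmp22, Scn7a and Cdh19, the third of S100b and the fourth of Mbp and Ngfr. Among the tested genes of its population, Pmp22 in DF stood above 99.7% and Scn7a above 78.8%. The other 4 genes stood in DF above 54.4% (Mbp) to 62.3% (Cdh19) of the genes. In Neg, Pmp22 stood above 99.7%, Scn7a 87.8%, Mbp 87.7%, Ngfr 74.1%, Cdh19 57.9% and S100b 50.5%. Cdh19 and S100b (60.4% in DF) thus ranked higher in DF than in Neg, and Mbp, Scn7a and Ngfr lower.

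**Figure D1:**
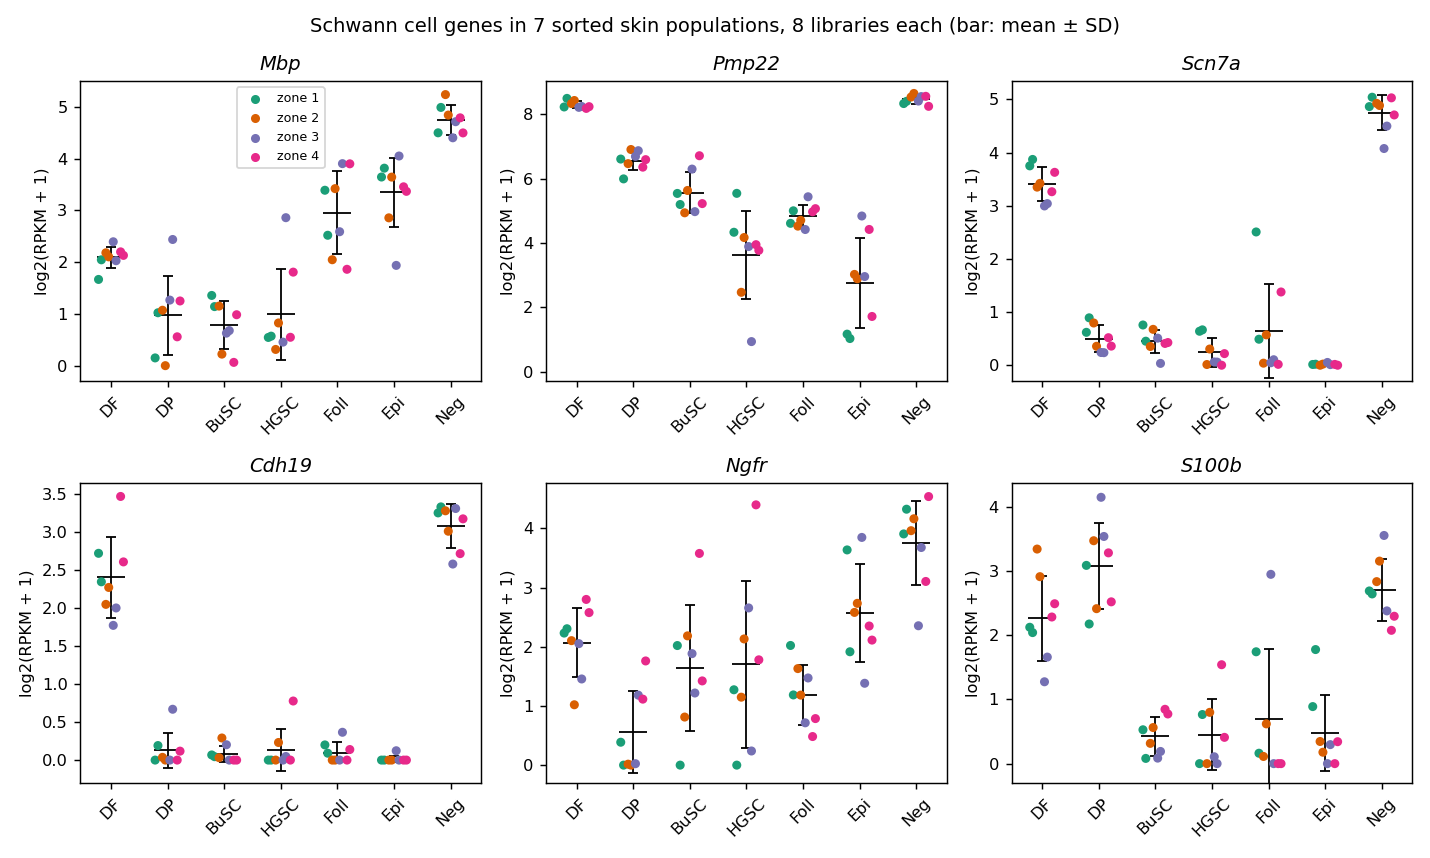
Each panel plots log2(RPKM + 1) of 1 gene in the 8 libraries of each population, coloured by zone, with the mean ± SD as a bar. Scn7a and Cdh19 in DF and Neg sit apart from all other populations, Pmp22 is high in DF and Neg alike, and S100b is highest in DP.

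Pmp22 was the most abundant of the genes per length in every population except Epi, where the mean of Mbp was higher. It had 291, 302 and 361 RPKM in DF (lowest, median and highest of 8 libraries) and 304, 356 and 402 RPKM in Neg, so the groups overlapped. DP libraries held 62.8, 96.2 and 119 RPKM, and BuSC libraries 29.7, 41.0 and 104 RPKM. In HGSC it was 0.91, 14.1 and 45.7 RPKM, in Foll 20.4, 27.7 and 42.4 RPKM, and in Epi 1.04, 6.58 and 27.6 RPKM. The lowest DF library was thus above the highest library of every population other than Neg. Pmp22 was called higher in DF than in DP (log2 difference 1.74 ± 0.34 SE, adjusted p = 6.55e-05), BuSC (2.73), HGSC (4.67), Foll (3.46) and Epi (5.55). The difference from Neg was -0.17 ± 0.34 (adjusted p = 0.72), and it turned positive with quantile normalization (0.26) and with median-of-ratios scaling (0.68). Below DF, Pmp22 was also called higher in DP than in HGSC (2.93), Foll (1.72) and Epi (3.81), and lower in HGSC than in Foll (-1.21, adjusted p = 0.0088, where 6.31% of all tested genes were called lower). The HGSC call was lost in a fit of those 2 populations alone (adjusted p = 0.096), and without the first HGSC library of zone 2 (-0.998) or the second of zone 3 (-0.84).

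Mbp had another order, with Epi and Foll above DF. It had 2.17, 3.34 and 4.25 RPKM in DF, against 20.1, 25.9 and 36.7 RPKM in Neg. The ranges did not overlap, and the mean in DF was 12.6% of that in Neg. Epi libraries held 2.83, 10.7 and 15.6 RPKM and Foll libraries 2.63, 7.24 and 13.95 RPKM, so both overlapped DF at their lower end. DP held 0, 1.07 and 4.42 RPKM, BuSC 0.045, 0.79 and 1.56 RPKM, and HGSC 0.24, 0.47 and 6.25 RPKM. Mbp was called lower in DF than in Neg (-2.65 ± 0.35, adjusted p = 8.43e-08) and Epi (-1.25 ± 0.35, adjusted p = 0.0023). Against Foll the difference was -0.86 (adjusted p = 0.033), short of the fold threshold, and it was 0.0038 with median-of-ratios scaling, so its direction was not kept. Mbp was called higher in DF than in DP (1.12), BuSC (1.31) and HGSC (1.10). The Epi call was lost with median-of-ratios scaling (-0.50), with quantile normalization (-0.60) and without the second Epi library of zone 3 (-0.99). The call against DP was lost without the second DP library of zone 2 (0.99) or the first of zone 3 (0.98), and that against HGSC without the first HGSC library of zone 3 (0.80) or of zone 4 (0.95). A call against Foll appeared without the first Foll library of zone 2 (-1.03), zone 3 (-1.02) or zone 4 (-1.11). Among the epithelial and papilla populations, Mbp was also called lower than in Epi in DP (-2.38), BuSC (-2.57) and HGSC (-2.36). The same populations were called lower than Foll, DP by -1.98, BuSC by -2.17 and HGSC by -1.96. Epi and Foll did not differ beyond their spread (adjusted p = 0.51).

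Scn7a was the gene with the smallest p over populations, high in Neg, intermediate in DF and close to 0 elsewhere. It had 6.98, 9.45 and 13.6 RPKM in DF, against 15.9, 28.4 and 31.9 RPKM in Neg, with no overlap. DP libraries held 0.18, 0.36 and 0.86 RPKM, BuSC libraries 0.024, 0.36 and 0.69 RPKM, and HGSC libraries 0, 0.10 and 0.59 RPKM. In Foll the median was 0.24 RPKM, with 1 library at 4.68, and in Epi no library exceeded 0.037 RPKM, 10 reads in all 8 libraries together. Every DF library was above every library of these 5 populations. In DF it was called higher than in DP (2.91 ± 0.22, adjusted p = 1.83e-13), BuSC (2.96), HGSC (3.17), Foll (2.77) and Epi (3.40). It was called lower in DF than in Neg (-1.34 ± 0.22, adjusted p = 3.44e-06), with a mean of 37.3% of the Neg mean. That call was lost with quantile normalization (-0.67) and median-of-ratios scaling (-0.55), which kept the direction. Among the 5 low populations, no neighbours in the order of means passed the test on this scale. With voom on recovered reads, Scn7a was called higher than in Epi in DP (4.70), BuSC (4.25), Foll (3.76) and HGSC (2.48). That setting also called it higher in DP than in HGSC (2.22). With a pseudocount of 0.1 it was called higher than in Epi in DP (2.12), BuSC (1.96) and Foll (1.88).

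By mean, Cdh19 was likewise highest in Neg, next in DF and close to 0 elsewhere, at lower levels than Scn7a. It had 2.42, 3.96 and 10.1 RPKM in DF, against 4.98, 8.28 and 9.06 RPKM in Neg. The highest DF library, replicate 1 of zone 4, exceeded every Neg library, and the other 7 DF libraries lay between 2.42 and 5.59 RPKM. The highest values elsewhere were 0.59 RPKM in DP, 0.22 in BuSC, 0.71 in HGSC, 0.29 in Foll and 0.089 in Epi. Reads of Cdh19 were absent from 4 of 8 DP, 3 of 8 BuSC, 5 of 8 HGSC, 4 of 8 Foll and 7 of 8 Epi libraries, and present in all libraries of DF (167 to 880 reads) and Neg (197 to 2391 reads). DF was called above DP (2.28 ± 0.16, adjusted p = 2.79e-14), BuSC (2.32), HGSC (2.27), Foll (2.31) and Epi (2.39). The difference from Neg was -0.68 ± 0.16 (adjusted p = 0.00049), short of the fold threshold. It was 0.14 and 0.04 with quantile normalization and median-of-ratios scaling, so its direction was not kept.

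Ngfr was detected in all populations, and its differences had the largest SE of the 6 genes on the log2(RPKM + 1) scale (0.43). It had 1.03, 3.50 and 5.96 RPKM in DF, against 4.11, 14.3 and 22.2 RPKM in Neg. The DF mean of 3.47 ± 1.59 RPKM was 25.2% of the Neg mean of 13.8 ± 5.91 RPKM (SD, n = 8 each), and the ranges overlapped at the lowest Neg library. Epi libraries held 1.61, 4.54 and 13.4 RPKM, HGSC libraries 0, 1.92 and 20.1 RPKM, and BuSC libraries 0, 2.19 and 10.9 RPKM. Foll reached 3.06 RPKM and DP 2.39 RPKM. Ngfr was called lower in DF than in Neg (-1.69 ± 0.43, adjusted p = 0.0014) and higher than in DP (1.51 ± 0.43, adjusted p = 0.0037). With DF it did not pass the test against BuSC (0.43), HGSC (0.36), Foll (0.88) or Epi (-0.50), whose libraries overlapped DF. The mean in HGSC, 4.25 RPKM, was above that of DF although the log2 difference had the other sign, since 1 HGSC library of zone 4 held 20.1 RPKM. With median-of-ratios scaling Ngfr passed as higher in DF than in BuSC (1.22), HGSC (1.20) and Foll (1.65). Quantile normalization gave the calls against BuSC (1.16) and Foll (1.45). The Neg call was lost with median-of-ratios scaling (-1.01, adjusted p = 0.068) and quantile normalization (-1.02, adjusted p = 0.069), and the Epi difference turned positive with both (0.21 and 0.09).

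S100b was the only one of the 6 genes with its highest mean in DP. DP libraries held 3.52, 8.12 and 16.7 RPKM and DF libraries 1.42, 3.62 and 9.15 RPKM, against 3.22, 5.35 and 10.8 RPKM in Neg, and all 3 overlapped. The medians elsewhere were 0.34 RPKM in BuSC, 0.20 in HGSC, 0.10 in Foll and 0.25 in Epi. Single libraries there reached higher, with 6.72 RPKM in Foll, 2.43 in Epi and 1.91 in HGSC. The difference between DF and DP was -0.81 ± 0.30 (adjusted p = 0.025), short of the fold threshold, and it was close to 0 with median-of-ratios scaling (-0.08). Against Neg, DF differed by -0.44 (adjusted p = 0.24) and DP by 0.38 (adjusted p = 0.38). The DF difference from Neg became positive with quantile normalization (0.47) and median-of-ratios scaling (0.25). DF was called above BuSC (1.84), HGSC (1.81), Foll (1.57) and Epi (1.79). DP was likewise called above BuSC (2.66 ± 0.30, adjusted p = 4.57e-09), HGSC (2.63), Foll (2.38) and Epi (2.60), comparisons in which 10.3%, 12%, 12.7% and 15.3% of all tested genes were called higher in DP.

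Counted over the 6 genes, DF was higher than DP in 5 (6.13% of all tested genes), than BuSC in 5 (8.18%), than HGSC in 5 (10.2%), than Foll in 4 (9.47%) and than Epi in 4 (11.5%). None was lower in DF than in DP, BuSC, HGSC or Foll, where 24.2%, 31.2%, 35.4% and 32.2% of all tested genes were lower. At adjusted p under 0.05 but short of the fold threshold, the lower genes were S100b against DP (-0.81) and Mbp against Foll (-0.86). Against Epi, Mbp was the only gene lower (28.6% of all tested genes). Against Neg, 0 were higher (2.16%) and 3 were lower, Mbp, Scn7a and Ngfr (23.9%). The within-zone differences of Scn7a, Cdh19 and Pmp22 from the 5 populations other than Neg were all positive, from 1.45 (Pmp22, DP) to 7.27 (Pmp22, Epi). Those of Mbp from Neg ran from -2.90 to -2.35 and those of Scn7a from -1.52 to -1.14, while those of S100b from DP ran from -2.38 to 0.18. For S100b against Foll, 1 zone had a difference below 0 (-0.01).

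The scale of DF bears on all these differences. The median of all tested genes lay below that of the other populations in DF, by -0.40 (Epi) to -0.58 (Neg) on the log2 scale. It lay within 0.1 of 0 after quantile normalization or median-of-ratios scaling. Of the genes called between DF and Neg, 8.29% were higher in DF on the deposited scale, 48.2% after quantile normalization and 40.3% after median-of-ratios scaling. The same shares were 20.2%, 56.0% and 66.3% against DP, 20.8%, 51.1% and 61.0% against BuSC, and 22.3%, 48.5% and 59.9% against HGSC. They were 22.7%, 50.9% and 59.6% against Foll, and 28.6%, 50.3% and 60.6% against Epi. Relative to the median of all genes, the differences of DF from Neg were -2.07 for Mbp, -1.11 for Ngfr, -0.76 for Scn7a, -0.10 for Cdh19, 0.14 for S100b and 0.41 for Pmp22.

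**Figure D2:**
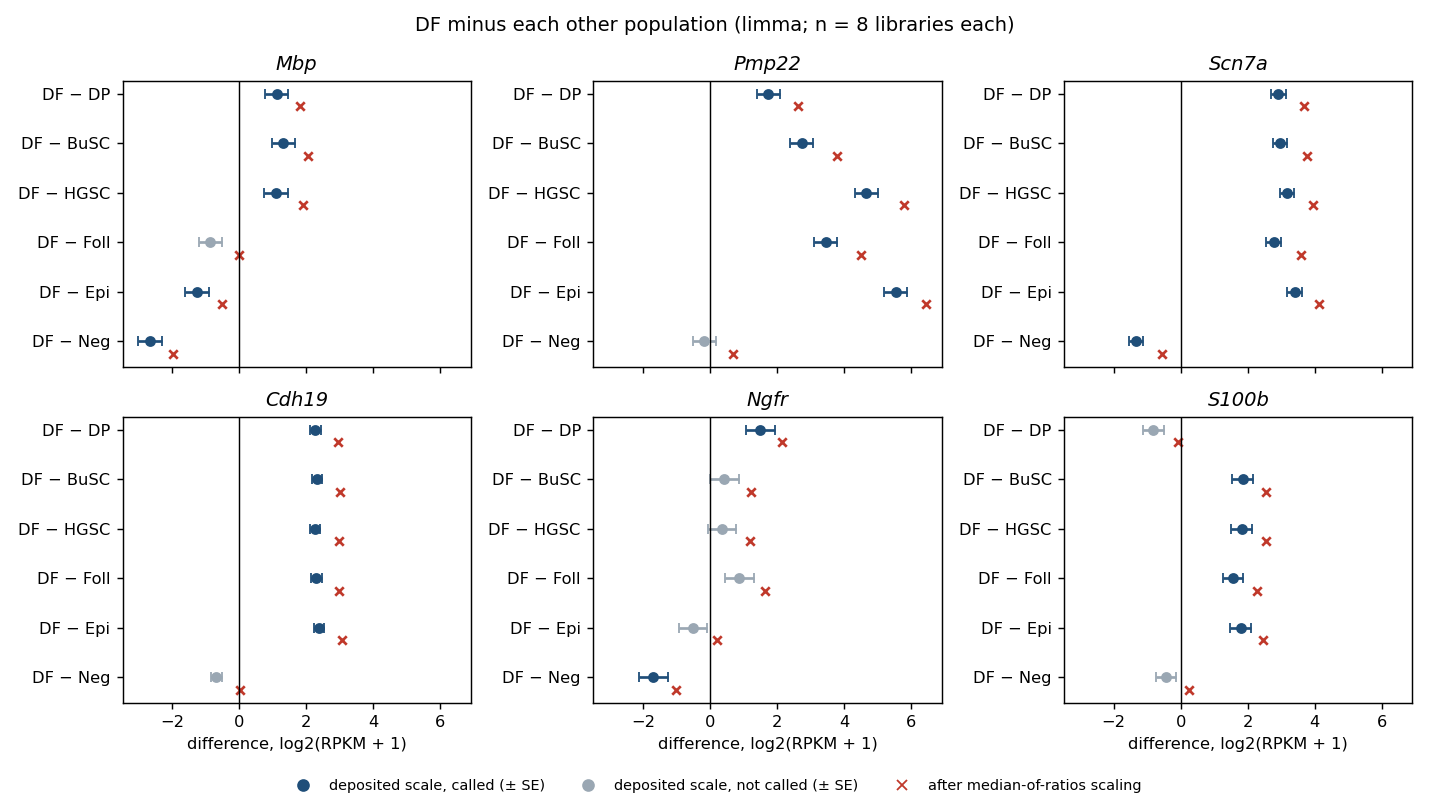
Points show DF minus each other population on the log2(RPKM + 1) scale (± SE, limma, n = 8 libraries each), dark where called, and crosses show the same after median-of-ratios scaling. All crosses lie to the right of their points, and the DF minus Neg differences of Pmp22, Cdh19 and S100b change sign.

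The other populations were also set against Neg. In DP 5 genes were called lower than in Neg (15.7% of all tested genes), with S100b the exception. All 6 were called lower in BuSC (14.6%), HGSC (16.3%), Foll (15.3%) and Epi (18.4%). The largest of these differences were those of Pmp22 in Epi (-5.71) and in HGSC (-4.83), followed by that of Scn7a in Epi (-4.74). The smallest, -1.18 for Ngfr in Epi, had an adjusted p of 0.024 and was lost with a pseudocount of 0.1 (adjusted p = 0.13), without the second Neg library of zone 3 (-1.02) or zone 4 (-1.004), and without the second Epi library of zone 1 (-0.97) or zone 3 (-0.88). Ngfr was called lower in DP than in Epi (-2.01, adjusted p = 0.00019), and with Mbp that made 2 of 6 genes (13.8%), against 1 in BuSC (7.02%) and 1 in HGSC (7.37%).

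The DF level as a share of the Neg level set the 6 genes beside markers of other cell types. Their shares ran from 12.6% (Mbp) to 89.0% (Pmp22), with a median of 49.2%, near the 52.6% of the 13526 tested genes with at least 1 RPKM in Neg. Melanocyte markers had a median share of 1.19%, endothelial markers 2.59%, immune markers 2.84% and keratinocyte markers 5.52%. In DF the melanocyte gene Dct averaged 2.39 RPKM and in Neg 227 RPKM. All 8 melanocyte, all 8 endothelial and all 7 keratinocyte markers were called lower in DF, as were 23.9% of all tested genes. Of the 11 immune markers 10 were, with a mean of 9.91 RPKM in DF and 21.4 RPKM in Neg for Csf1r, a macrophage receptor kinase and the exception. In DF, the 8 melanocyte markers summed to 10.9 to 23.8 RPKM, the 8 endothelial markers to 2.95 to 12.4 RPKM and the 11 immune markers to 49.0 to 90.3 RPKM, and none of the 3 lists had a gene at 0 in all 8 libraries. Fibroblast markers had a median share of 234%, with 5 of 9 called higher in DF and 0 lower (2.16% and 23.9% of all tested genes). Dpt (76.1%) and Pdgfra (76.6%) had a lower mean in DF without a call. Of the 9 smooth muscle and pericyte markers, 4 were called higher in DF and 3 lower (2.16% and 23.9% of all tested genes). Acta2 stood at 247%, Myh11 at 229%, Des at 484%, Cnn1 at 749% and the pericyte gene Rgs5 at 2.71%. The part of these other cell types in the differences of the 6 genes was not tested.

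The shares of the core Schwann cell markers overlapped those of some of these lists. Among the melanocyte markers (median 1.19%), Ednrb stood at 22.5% and Mitf at 32.1%. Keratinocyte markers reached 20.7% and immune markers 46.4% (Csf1r). Sox10, the lineage transcription factor, had 2.84, 4.26 and 12.2 RPKM in DF, against 11.7, 14.1 and 29.3 RPKM in Neg. The DF mean of Sox10 was 34.2% of the Neg mean. Prx (periaxin), needed for stable myelin, had a share of 7.85%, and Erbb3, the neuregulin receptor, one of 28.3%. Foxd3, a neural crest transcription factor, stood at 70.9%, from low means of 0.78 RPKM in DF and 1.10 RPKM in Neg. Its share by zone ran from 16.3% to 225%. Gfra3, a coreceptor of artemin, stood at 67.4%. Of the 7 on the list, 5 were called lower in DF than in Neg, among them Sox10, Erbb3 and Prx, where 23.9% of all tested genes were. With median-of-ratios scaling 2 of the 7 were, and 1705 of all 16731 tested genes. Against DP, Sox10 (2.24) and Erbb3 (1.65) were called higher in DF, and Gfra3, at 44.8 RPKM in DP, lower (-3.01). Erbb3 was highest in Epi, at 33.9 RPKM.

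**Figure D3:**
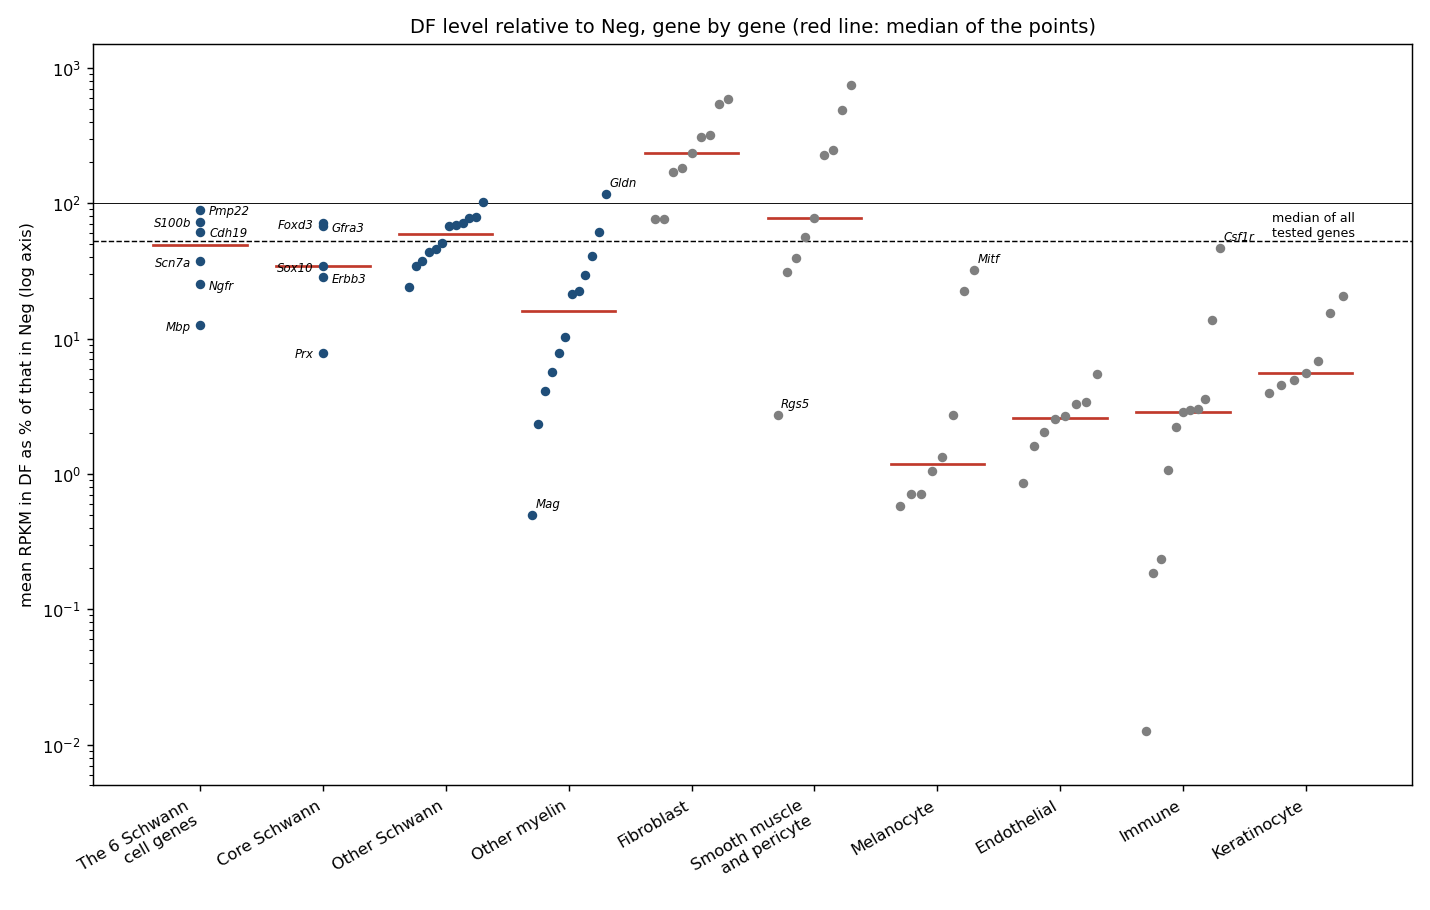
Each point is a gene's mean RPKM in DF as a percentage of its mean in Neg, on a log axis, for genes with at least 1 RPKM in Neg, and the red line is the median of the points drawn. The 6 Schwann cell genes lie between 12.6% and 89.0%, the endothelial markers between 0.849% and 5.48%, and the fibroblast markers reach 590%.

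Among the other myelin genes (15, among them Prx and other core genes) 11 were called lower in DF than in Neg and 0 higher (23.9% and 2.16% of all tested genes), with a median difference of -1.66 against -0.58 for all tested genes. Mag, the myelin-associated glycoprotein, had the lowest share, at 0.497%. Mal, a proteolipid of compact myelin, differed by -2.85 and Cldn19, a claudin of Schwann cell tight junctions, by -2.66. Gldn (gliomedin), which clusters sodium channels at nodes, was not called, with 23.3 RPKM in DF and 19.9 RPKM in Neg. Of the 14 other Schwann cell genes, which include the core genes Sox10, Foxd3 and Gfra3, 3 were called lower and 0 higher, a share near that of all tested genes (23.9% lower), with a median difference of -0.46 against -0.58 for all tested genes. These 3 were Sox10, the adhesion molecule L1cam (-1.30) and the potassium channel gene Kcna1 (-1.91). Matn2, an extracellular matrix protein, averaged 45.5 RPKM in DF and 58.4 RPKM in Neg, and the neural adhesion molecule Ncam1 averaged 14.5 RPKM and 14.2 RPKM in the same order, neither called. With median-of-ratios scaling the counts were 8 lower and 1 higher for the myelin genes, and 1 lower and 0 higher for the other Schwann cell genes.

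Of the 8 tested Schwann lineage transcription factors, 3 were called lower in DF than in Neg, Sox10, Egr2 (-2.43) and Pou3f1 (-1.46), the last an inducer of Egr2, and 0 higher (23.9% and 2.16% of all tested genes). The receptors of neuregulin, neurotrophins and the GDNF family had 6 of 9 tested genes lower in DF (23.9% of all tested genes), among them Erbb3 and the neurotrophin receptor Ntrk2 (-2.49). Ntrk3, the receptor of neurotrophin 3, averaged 12.4 RPKM in DF and 10.3 RPKM in Neg and was not called. Of the ligands, Ntf3 (neurotrophin 3) was called higher in DF (1.20, adjusted p = 0.010) and Gdnf lower (-1.05, adjusted p = 0.016).

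Within a library, each gene was also set against Sox10, as the log2 ratio of RPKM with 0.1 added, a comparison chosen after the values had been seen. The common scale of a library cancels in this ratio except for the 0.1 added. That addition weighs most on low values, such as Foxd3 (mean 0.78 RPKM in DF) and Prx (0.73). Sox10 is also a melanocyte gene, which bears on its level in Neg, and that share was not tested. Mbp stood at -0.59 ± 0.61 in DF and 0.74 ± 0.47 in Neg (SD, n = 8 each; difference -1.33, exact permutation p = 0.00031). Pmp22 stood at 5.96 ± 0.69 in DF and 4.51 ± 0.48 in Neg (1.45, exact permutation p = 0.00078), and Cdh19 at -0.22 ± 0.54 and -1.04 ± 0.49 in the same order (0.82, exact permutation p = 0.0023). The ratio of Scn7a was 0.95 ± 0.72 in DF and 0.75 ± 0.36 in Neg (0.20, exact permutation p = 0.52), and that of Ngfr -0.66 ± 0.62 in DF and -0.32 ± 0.77 in Neg (-0.35, exact permutation p = 0.33). S100b was at -0.41 ± 0.99 in DF and -1.48 ± 0.83 in Neg (1.07, exact permutation p = 0.037). Of the core genes, Prx had a lower ratio in DF (-2.11, exact permutation p = 0.00062). Gfra3 had a higher one (1.08, exact permutation p = 0.0042), Erbb3 differed by -0.19 (exact permutation p = 0.64) and Foxd3 by 0.92 (exact permutation p = 0.13). Ratios of 12 genes were computed, and the tests were two-sided and are given above without adjustment. After Benjamini-Hochberg adjustment over the 12, the S100b ratio did not pass (exact permutation, adjusted p = 0.063). The smallest p that 8 against 8 libraries can give is 0.000155, and the ranges of DF and Neg overlapped in each of the 12.

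**Figure D4:**
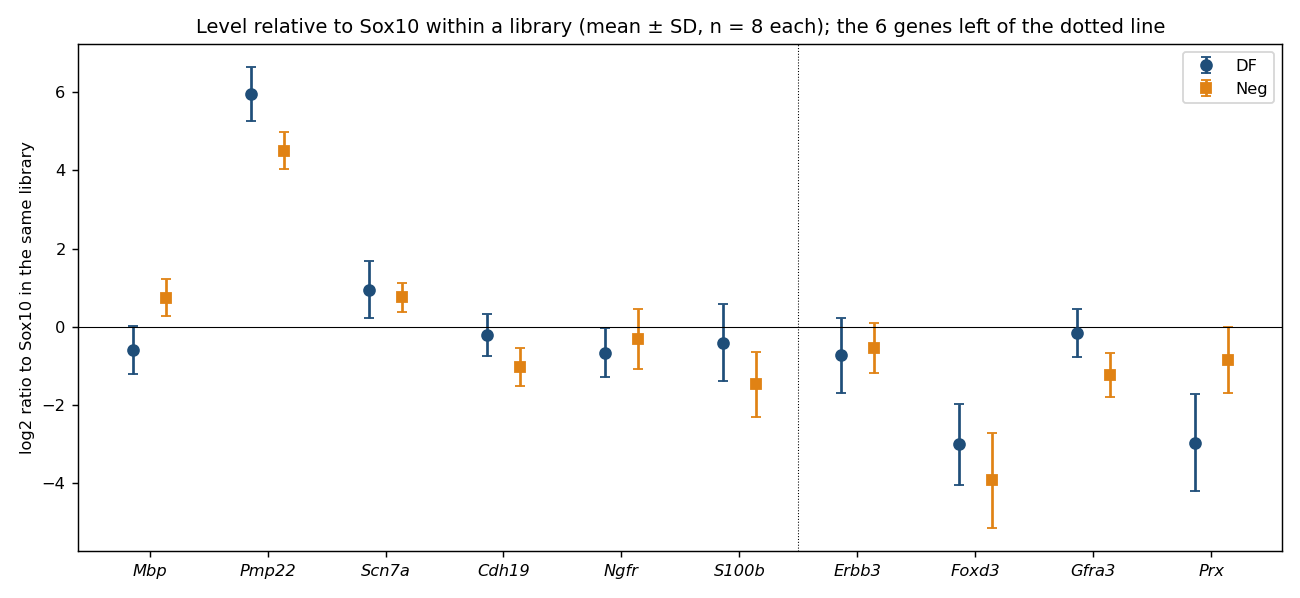
The log2 ratio of each gene to Sox10 in the same library is shown as mean ± SD for DF (circles) and Neg (squares), n = 8 libraries each. Mbp and Prx sit lower in DF, Pmp22, Cdh19 and Gfra3 higher, and Scn7a close together.

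Over the 4 zones none of the 6 genes passed the test in any population. Of 42 zone tests (6 genes in 7 populations, moderated F), 0 passed at an adjusted p under 0.05 and 4 had an unadjusted p under 0.05. The shares of all tested genes that passed were 0.197% in DF, 0.43% in DP, 0.359% in BuSC, 0.137% in HGSC, 1.03% in Foll, 1.79% in Epi and 1.01% in Neg. The lowest adjusted p belonged to Pmp22 in Epi (0.078). Its 2 Epi libraries held 1.24 and 1.04 RPKM in zone 1, 7.12 and 6.40 RPKM in zone 2, 27.6 and 6.76 RPKM in zone 3, and 20.4 and 2.28 RPKM in zone 4. Zone 1 was the lowest, and replicates in zones 3 and 4 differed widely. The other tests with an unadjusted p under 0.05 were Cdh19 in DF (adjusted p = 0.63), Pmp22 in HGSC (0.46) and Scn7a in Foll (0.20). Leaving out 1 library changed whether some tests passed. For Pmp22 these were the second library of zone 3 or either library of zone 4 in Epi, and the first of zone 3 in HGSC. Scn7a in Foll changed without the second library of zone 1. S100b in Foll, not among the 4, changed without the second of zone 3. Each such fit leaves 1 library for a zone, so it cannot separate the zone from that library. The library left held 0.91 RPKM of Pmp22 in HGSC. In Foll it held 4.68 RPKM of Scn7a (0.40 in the one left out) and 6.72 RPKM of S100b (0 in the one left out).

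In DF, Scn7a held 12.5 and 13.6 RPKM in zone 1, 9.20 and 9.71 RPKM in zone 2, 6.98 and 7.22 RPKM in zone 3, and 8.61 and 11.4 RPKM in zone 4. In Neg it held 28.1 and 31.9, 29.4 and 28.6, 15.9 and 21.6, and 31.7 and 25.1 RPKM from zone 1 to zone 4. Zone 3 was thus the lowest in both, without passing the test in either (adjusted p = 1 in both). Cdh19 in DF had means of 4.84, 3.48, 2.71 and 7.58 RPKM in zones 1 to 4, against 8.80, 7.89, 6.95 and 6.80 RPKM in Neg. S100b in DF had means of 3.24, 7.84, 1.79 and 4.25 RPKM from zone 1 to zone 4, and Ngfr 3.82, 2.16, 2.45 and 5.46 RPKM. Pmp22 in DF stayed between 296 and 334 RPKM and Mbp between 2.65 and 3.66 RPKM over the zone means. The zone trend of DF minus that of another population passed in 0 of 36 tests, and 1 had an unadjusted p under 0.05, that of Pmp22 between DF and Epi (-0.75 log2 per zone step, adjusted p = 0.54). The shares of all tested genes that passed were 0.0837% against DP, 0.245% against BuSC, 0.0538% against HGSC, 0.0538% against Foll, 0.12% against Epi and 0.131% against Neg.

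**Figure D5:**
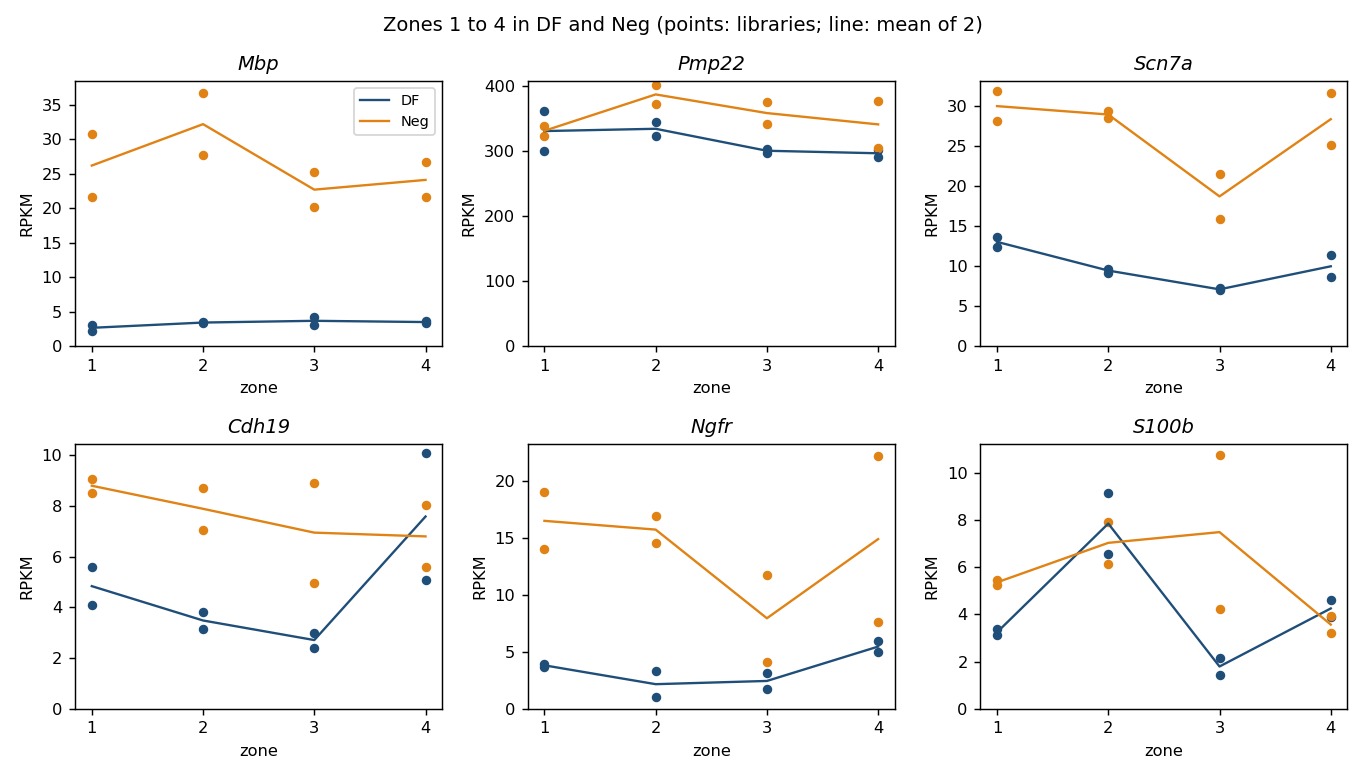
RPKM of each gene in zones 1 to 4 is plotted for DF and Neg, with a point per library and a line through the mean of 2. Scn7a is lowest in zone 3 in both populations (7.10 and 18.7 RPKM), and Cdh19 in DF is highest in zone 4, where 1 library holds 10.1 RPKM.

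The patterns of the 6 genes were compared over the 28 population-by-zone means by Pearson's r of log2(RPKM + 1), as a description, since every pair of genes was read in the same libraries and at the same depths. Scn7a and Cdh19 were the closest pair (r = 0.97), followed by Pmp22 and Scn7a (0.82). Ngfr and S100b were the least alike (0.12), and Mbp was nearer to Ngfr (0.68) than to Pmp22 (0.18). Other tested genes were compared where they had at least 5 RPKM in their highest population, leaving out predicted genes and microRNAs. Those most like Scn7a were Kcna6 (0.98), Col28a1 (0.98), Kcna1 (0.97) and C4b (0.97). The same 4 genes were most like Cdh19 (0.96 to 0.98), Kcna6 and Kcna1 encoding potassium channels and Col28a1 a collagen. Pmp22 was most like Fbn1 (0.96), Nhsl2 (0.95), Angptl2 (0.94) and Sparcl1 (0.94), of which Fbn1 encodes the matrix protein fibrillin. Mbp was most like Npy1r (0.92), Il4ra (0.92), Epas1 (0.89) and Klf6 (0.88). Ngfr had no close neighbour, its nearest being Dock9 (0.79), Plat (0.79), Vwa5a (0.78) and Itih5 (0.78). S100b was most like Cdh2 (0.93), the neural cadherin, Lats2 (0.93) and Fgd5 (0.92).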

How the data were processed

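Sorted cells gave RNA with an integrity number of at least 8.8, of which 6 ng was amplified and sequenced, per the labels' protocols. The deposited values are RPKM per gene, computed by the authors, and the submitters' processing notes name mm10 as build and, as tools, featureCounts, DESeq2, edgeR and limma without versions beside STAR 2.4.0. Whether counting used strand is not given in the sources used here, and in GENCODE M21 no other gene has exons overlapping those of the 6 genes.

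For 22233 of 22233 genes above 0, values were whole reads in all 56 libraries (tolerance 0.02 reads), which gave the totals each library was scaled to. No library was a copy of another (highest correlation 0.98). limma 3.58.1 in R 4.3.3 was fitted to log2(RPKM + 1) of the 16731 genes with at least 1 RPKM in at least 2 libraries, as 28 group means with an abundance trend (residual degrees of freedom 28). Tests were two-sided with Benjamini-Hochberg adjustment over all tested genes, and were tested on simulated data. Samples were grouped by the population and zone in their labels. The limma p-values rest on how far the 2 replicates of a zone lie apart, and what the replicates share is not stated. Ratios to Sox10 were tested by exact permutation over libraries (scipy 1.17.1).

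The genes, lists and tests were chosen with earlier results of these data known. Named genes are the 6, all core markers, and from each other list up to 4 with the highest mean in DF or Neg and those called with the largest difference between them. Csf1r and the genes with the lowest share in a list were named after their values were seen. Other pseudocounts (0.1, 0.5), no filter, quantile normalization, median-of-ratios scaling, voom on recovered reads, a replicate block, no trend, separate fits and leaving out each library were tried. Genes most like each member needed at least 5 RPKM in their highest population, and predicted genes (Gm and Rik symbols) and microRNA symbols were left out. The promoter of Mbp was not used here, and some genes that these rules name are not reported here.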

Additional observations from a re-analysis of the deposited data

Results flagged for a closer look

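In 14 of the 42 sets of 8 libraries (6 genes in 7 populations), the highest library stood apart from the other 7 by more than Dixon's 95% critical value. Chance flags about 1 in 20 sets of normally distributed values, and these sets combine 4 zones, and some hold zeros. No cause was tested.

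In DF, the single such value was Cdh19 in replicate 1 of zone 4, at 10.1 RPKM with the other libraries at 2.42 to 5.59 RPKM. In DP, replicate 2 of zone 3 held 4.42 RPKM of Mbp (others up to 1.41) and 0.59 RPKM of Cdh19 (others up to 0.142). In BuSC, replicate 1 of zone 4 held 10.9 RPKM of Ngfr (others up to 3.54). In HGSC, replicate 1 of zone 4 held 20.1 RPKM of Ngfr (others up to 5.30) and 1.91 RPKM of S100b (others up to 0.74). Also in HGSC, Mbp was at 6.25 RPKM in replicate 2 of zone 3 (others up to 2.498), Pmp22 at 45.7 RPKM in replicate 2 of zone 1 (others up to 19.2) and Cdh19 at 0.714 RPKM in replicate 2 of zone 4 (others up to 0.174). In Foll, Scn7a was at 4.68 RPKM in replicate 1 of zone 1 (others up to 1.60) and S100b at 6.72 RPKM in replicate 1 of zone 3 (others up to 2.35). In Epi, replicate 1 of zone 3 held 0.0370 RPKM of Scn7a and 0.0889 RPKM of Cdh19, the Cdh19 value from 3 reads, and replicate 2 of zone 1 held 2.43 RPKM of S100b (others up to 0.852).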

How the results depend on the processing

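No difference reported as called changed sign under any alternative. With quantile normalization and with median-of-ratios scaling, the number of the 6 genes lower in DF than in Epi was 0 and lower than in Neg was 1 (Mbp), against 1 and 3 on the deposited scale. With a pseudocount of 0.1, 1 gene passed over the zones of Epi (Pmp22, adjusted p = 0.034). Leaving out each of the 56 libraries in turn gave 0 to 1 genes over the zones in HGSC, in Epi and in Foll, 0 to 1 lower in DF than in Foll, and 0 to 1 lower in DF than in Epi. Those over zones were Pmp22 in HGSC and Epi, and Scn7a or S100b in Foll. They came from fits that left 1 library for a zone of the tested population. For Epi the count also changed without either HGSC library of zone 3. The ratio of S100b to Sox10 passed after adjustment over the 12 ratios with a pseudocount of 1 and without DF replicate 1 of zone 3 or 4 or Neg replicate 1 of zone 3, and that of Foxd3 with a pseudocount of 1 (chosen after seeing the data).

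Libraries with the same replicate number shared little of their deviations. Over 84 pairs of populations of a zone, these correlated at -0.028 to 0.085 (median 0.014), and 0 exceeded 0.1. Low correlations cannot show whether such libraries came from the same animals. A fit with a replicate block left the counts of genes as they were, for example 5 genes higher in DF than in DP and 3 lower in DF than in Neg. The other settings (no filter, pseudocount 0.5, no abundance trend, voom on recovered reads) left all 26 counts of genes as they were, as did fits of the compared or tested populations for the counts they can give. With 2 libraries a zone, small zone differences may pass undetected. Outside DF and Neg, Cdh19 had at most 40 reads in a library, and in Epi Scn7a had at most 3.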
